A study of Homo sapiens with 12 samples.

Results

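The genes described here encode the subunits of the respiratory chain and ATP synthase. They were taken as protein-coding rows of the count table whose symbols name a subunit of complex I (NDUFA, NDUFB, NDUFC, NDUFS and NDUFV, without the NDUFAF assembly factors), complex II (SDHA to SDHD), complex III (UQCR genes and CYC1), complex IV (COX4I to COX8) or complex V (ATP5), together with the protein genes of the mitochondrial genome. This gave 103 of the 60617 genes in the table. Of these, 90 lie in the nucleus, with 40 in complex I, 4 in complex II, 10 in complex III, 17 in complex IV and 19 in complex V. The other 13 lie in the mitochondrial genome, with 7 in complex I, 1 in complex III, 3 in complex IV and 2 in complex V. The rule itself uses symbols and gene type, not measured values. Because complexes follow the symbols, NDUFA4, now placed in complex IV, and its paralogue NDUFA4L2 were counted with complex I throughout.

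The cells were NCI-H295R, an established line from a human adrenocortical carcinoma that secretes steroid hormones. There were 4 groups of 3 polyadenylated RNA libraries, which the labels call biological replicates. The EZH2i group was exposed for 96 h to 62 µM EPZ-6438, which inhibits the histone methyltransferase EZH2. The CBPi group was exposed for 96 h to 26 µM PRI-724, which blocks the interaction of the coactivator CBP with β-catenin. The labels give both as IC50 doses. The FSK group had vehicle for 48 h and then 10 µM forskolin, an activator of adenylyl cyclase, for 48 h. The baseline group had the DMSO vehicle for 96 h. All 12 libraries come from 1 line, so the spread is that between cultures. Depth was 29.5 to 31.5 megacounts (counts times 1e-06) in EZH2i libraries, 20.6 to 28.8 in CBPi libraries, 23.4 to 25.4 in FSK libraries and 21.0 to 27.0 in baseline libraries. The adrenocortical marker list (8 genes, among them NR5A1, STAR and CYP11A1) was detected throughout, with summed levels of 1856 to 1892 CPM (counts relative to the TMM-scaled library size) in EZH2i libraries, 1624 to 1816 CPM in CBPi libraries, 9268 to 9474 CPM in FSK libraries and 3901 to 4086 CPM in baseline libraries. The marker lists of endothelial, immune, erythroid and adrenal medullary cells each summed to less than 7 CPM in every library, with PTPRC, the pan-leukocyte marker, at 0 in all CBPi, FSK and baseline libraries. The 7 fibroblast markers summed to 41.9 to 48.7 CPM with EZH2i, 14.7 to 18.8 CPM with CBPi, 17.5 to 18.9 CPM with FSK and 38.8 to 41.3 CPM at baseline. The part of the adrenocortical and fibroblast levels in the results below was not tested.

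Complexes I, III and IV pass electrons from NADH and ubiquinol to oxygen and pump protons across the inner mitochondrial membrane. Complex II feeds in electrons from succinate without pumping, and complex V, the ATP synthase, lets the protons back to make ATP. Complex II is built wholly from nuclear genes. The other complexes mix nuclear subunits, imported from the cytosol, with a few hydrophobic ones made inside the organelle, so that their supply depends on transcription in both compartments. In adrenocortical cells the mitochondrion also houses the first and the last steps of steroid synthesis.

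Promoters of nuclear respiratory genes are known for letters bound by NRF1, by ETS factors such as GABPA, by estrogen-related receptors and by YY1. RefSeq promoter sequences (GRCh38.p14, 250 bases before and 50 bases after the start) were matched by symbol for 70 of the 90 nuclear members, in 83 windows. Both strands were searched, and 22198 windows of protein-coding genes gave the comparison. The NRF1 letters (GCGCA, any base, then GCGC) stood in 20.5% of members' windows and 7.38% of all windows. The ETS letters CCGGAAG stood in 26.5% and 12.8%, and the estrogen-related receptor letters AAGGTCA in 14.5% and 3.22%. The YY1 letters AAGATGGCG stood in 12.05% of members' windows, against 2.41% of all windows. The cAMP response element TGACGTCA, which CREB binds, stood in 6.02%, against 2.26%. A match says only that the letters are present. None of the listed matches in the sequences below overlaps another. With EZH2i the median log2 fold change was -0.54 with and -0.63 without the NRF1 letters, and -0.70 and -0.59 for ETS. The part of these letters in the falls was not tested. SDHA, COX5B and ATP5MG are shown as the largest falls with EZH2i in complexes II, IV and V among members with 1 window. NDUFA11 and UQCRQ, picked likewise for complexes I and III, are not printed. ATP5MG, a subunit of the membrane part of complex V, fell by 0.78 ± 0.07 with EZH2i and 0.65 ± 0.07 with CBPi on the log2 scale. NDUFA10 and NDUFB2 are shown from the 5 members that hold the cAMP response element. They were picked because they moved in opposite directions with FSK. The median log2 fold change with FSK was -0.091 with and -0.092 without these letters. Their part in the changes with FSK was not tested. Capitals mark the matches (NRF1 in SDHA; ETS in COX5B; an estrogen-related receptor match and then an ETS match, both on the opposite strand, in ATP5MG; the cAMP response element in NDUFA10 and NDUFB2). The windows lie at chr5:218070-218369 on the + strand (SDHA), chr2:97645812-97646111 on the + strand (COX5B), chr11:118401356-118401655 on the + strand (ATP5MG), chr2:240025293-240025592 on the - strand (NDUFA10) and chr7:140696458-140696757 on the + strand (NDUFB2). In SDHA the 4 matches begin 166, 117, 68 and 19 bases before the start.
SDHA: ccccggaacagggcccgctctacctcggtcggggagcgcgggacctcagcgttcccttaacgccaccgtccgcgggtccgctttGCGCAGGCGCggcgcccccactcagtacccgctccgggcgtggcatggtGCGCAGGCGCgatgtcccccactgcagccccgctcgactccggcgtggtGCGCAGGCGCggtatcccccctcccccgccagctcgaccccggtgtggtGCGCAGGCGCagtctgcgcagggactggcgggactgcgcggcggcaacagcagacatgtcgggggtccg
COX5B: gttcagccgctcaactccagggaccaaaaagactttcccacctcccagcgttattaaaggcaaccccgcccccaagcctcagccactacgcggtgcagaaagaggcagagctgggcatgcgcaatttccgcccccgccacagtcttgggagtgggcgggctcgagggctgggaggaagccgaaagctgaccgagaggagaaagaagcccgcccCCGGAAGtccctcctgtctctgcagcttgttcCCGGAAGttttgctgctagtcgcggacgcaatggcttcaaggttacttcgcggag
ATP5MG: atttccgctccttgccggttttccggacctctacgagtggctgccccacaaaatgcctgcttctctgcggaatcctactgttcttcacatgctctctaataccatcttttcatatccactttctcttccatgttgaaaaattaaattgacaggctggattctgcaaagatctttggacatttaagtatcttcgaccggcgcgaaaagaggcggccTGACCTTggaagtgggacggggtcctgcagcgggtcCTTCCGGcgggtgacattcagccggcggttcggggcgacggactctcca
NDUFA10: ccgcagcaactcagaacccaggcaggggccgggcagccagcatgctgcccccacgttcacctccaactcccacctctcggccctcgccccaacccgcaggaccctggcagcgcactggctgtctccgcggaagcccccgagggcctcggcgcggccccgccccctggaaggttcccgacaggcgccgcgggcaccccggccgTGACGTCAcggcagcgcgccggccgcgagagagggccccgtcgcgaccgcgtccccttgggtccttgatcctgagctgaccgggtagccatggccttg
NDUFB2: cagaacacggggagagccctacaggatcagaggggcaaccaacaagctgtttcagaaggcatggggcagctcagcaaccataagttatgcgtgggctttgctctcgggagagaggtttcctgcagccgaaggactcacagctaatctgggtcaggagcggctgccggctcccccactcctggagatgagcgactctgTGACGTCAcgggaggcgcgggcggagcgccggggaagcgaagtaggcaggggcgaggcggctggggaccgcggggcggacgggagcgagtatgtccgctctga

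The mitochondrial mRNAs are cut from long transcripts of the whole circle, and some genes share bases. MT-ATP8 and MT-ATP6, the mitochondrially encoded subunits of complex V, overlap in 46 bases at chrM:8527-8572, where the start codon of MT-ATP6 and the stop codon of MT-ATP8 are in capitals. Copies of mitochondrial DNA also lie in the nuclear genome, which matters for counting. The copy MTCO1P12 on chromosome 1 matched MT-CO1 in 98.6% of aligned bases (1522 of 1543). Below are 60 bases of MT-CO1 (chrM:6207-6266) and of this copy (chr1:631377-631436), both on the + strand, with the 3 differing bases in capitals. The stretch was picked because no ungapped window of 60 bases holds more differing bases, so most of the alignment differs less. A read within such a stretch tells the copies apart only by those bases.
MT-ATP8 and MT-ATP6 shared bases: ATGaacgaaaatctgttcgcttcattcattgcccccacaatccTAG
MT-CO1: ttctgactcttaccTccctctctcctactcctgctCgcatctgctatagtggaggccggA
MTCO1P12: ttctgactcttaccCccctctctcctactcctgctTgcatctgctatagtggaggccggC

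Nuclear subunit mRNAs were lower with both inhibitors in every complex, whereas none of the mitochondrially encoded mRNAs passed as lower. With EZH2i, 81 of the 84 nuclear members tested fell and 0 rose, at an adjusted p under 0.05 in edgeR's quasi-likelihood test. Over all genes tested, 28.3% fell and 29.5% rose. The median log2 fold change of the nuclear members was -0.60, a level 34.2% below baseline, beside 0.02 for all genes tested. With CBPi, 73 of 84 fell and 0 rose, with a median of -0.47, or 27.6% below baseline. Over all genes tested with CBPi, 29.0% fell and 29.8% rose, and the median was 0.01. With FSK, 26 of 84 fell, 9 rose and 49 did not pass, with a median of -0.08, beside 25.1% lower, 25.5% higher and a median of 0.01 over all genes. The libraries of the groups did not overlap, on the lower side, for 80 of 84 with EZH2i, 72 with CBPi and 23 with FSK, beside 32.1%, 30.7% and 28.7% of all genes. On the higher side this held for 0, 1 and 8, beside 33.8%, 31.4% and 28.8% of all genes. The 3 comparisons share the baseline libraries. The 6 members too low to test were COX4I2, COX6A2, COX7A1, COX7B2, COX8C and ATP5MGL. The rows NDUFC2-KCTD14 and ATP5MF-PTCD1 are readthrough genes that share exons with NDUFC2 and ATP5MF.

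**Figure D1:**
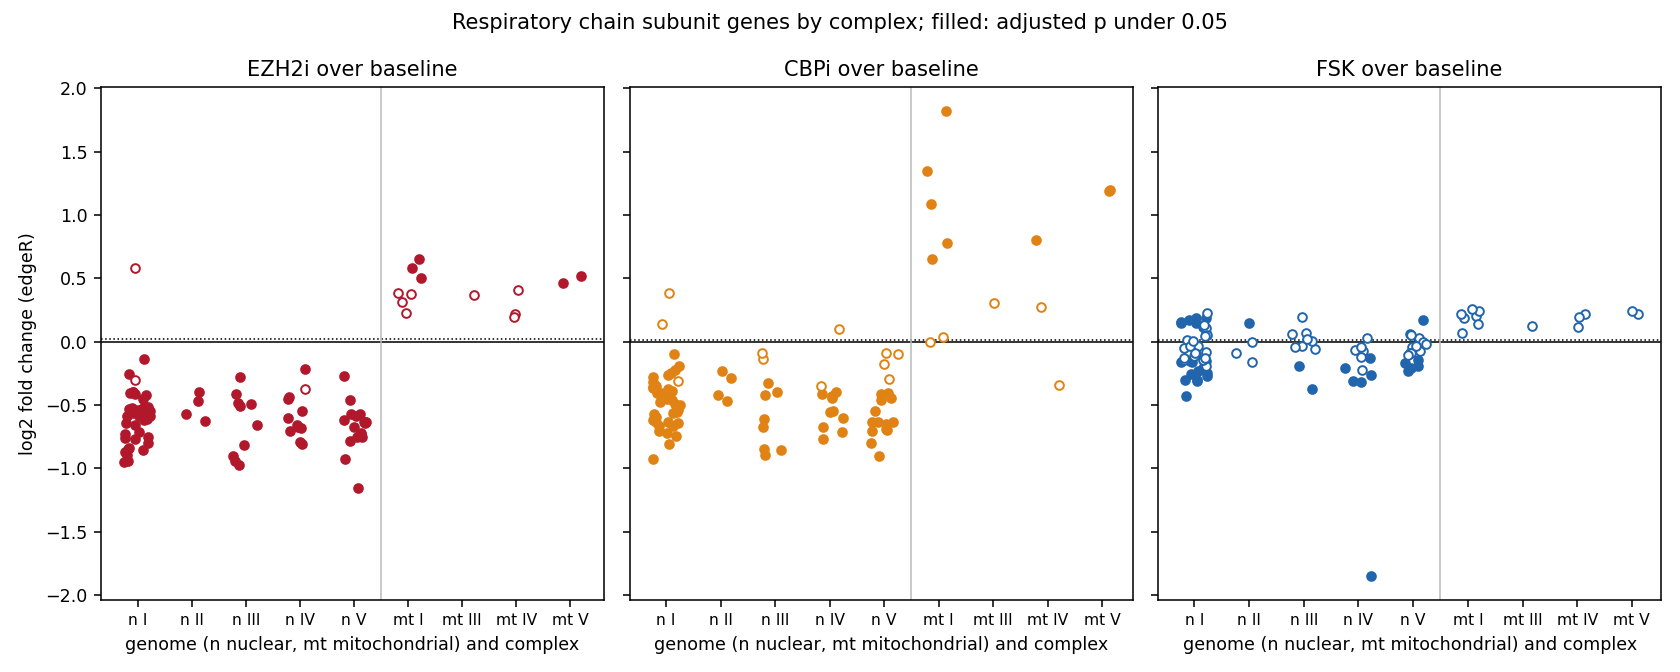
Log2 fold change of each tested subunit gene (1 point each) by genome and complex, for EZH2i, CBPi and FSK over baseline. Filled points had an adjusted p under 0.05, the dotted line is the median of all genes tested, and the vertical line separates nuclear from mitochondrially encoded genes. With EZH2i 81 nuclear points lie filled below 0 while all 13 mitochondrial points lie above it, and with CBPi the mitochondrial points spread from -0.34 to 1.83.

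The fall ran through all complexes. With EZH2i, 38 of 40 tested genes of complex I, 4 of 4 of complex II, 10 of 10 of complex III, 11 of 12 of complex IV and 18 of 18 of complex V fell. Their median log2 fold changes were -0.58, -0.52, -0.58, -0.63 and -0.64 in the same order of complexes. With CBPi the counts were 37 of 40, 4 of 4, 8 of 10, 10 of 12 and 14 of 18, and the medians -0.47, -0.35, -0.52, -0.50 and -0.59. Complex II thus had the smallest median with either inhibitor and complex V the largest, a description over genes with no test between complexes. With EZH2i complexes IV and V were nearly equal (-0.630 and -0.635). In CBPi replicate 1 complexes IV (-0.673) and I (-0.615) lay below complex V (-0.610), relative to the baseline mean. Library by library, the median over all nuclear members lay at -0.63, -0.60 and -0.58 with EZH2i, at -0.59, -0.40 and -0.47 with CBPi, at 0.00, -0.15 and -0.10 with FSK and at -0.08, 0.04 and 0.04 at baseline, in log2 units relative to the baseline mean. The inhibitor libraries did not overlap those at baseline. The sum over nuclear members was 6386 ± 150 CPM with EZH2i, 6990 ± 320 CPM with CBPi, 9898 ± 455 CPM with FSK and 10030 ± 500 CPM at baseline (SD, n = 3 each). These are levels relative to all counts of a bulk library, where fewer cells that express a gene and less of its RNA per cell cannot be told apart.

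**Figure D2:**
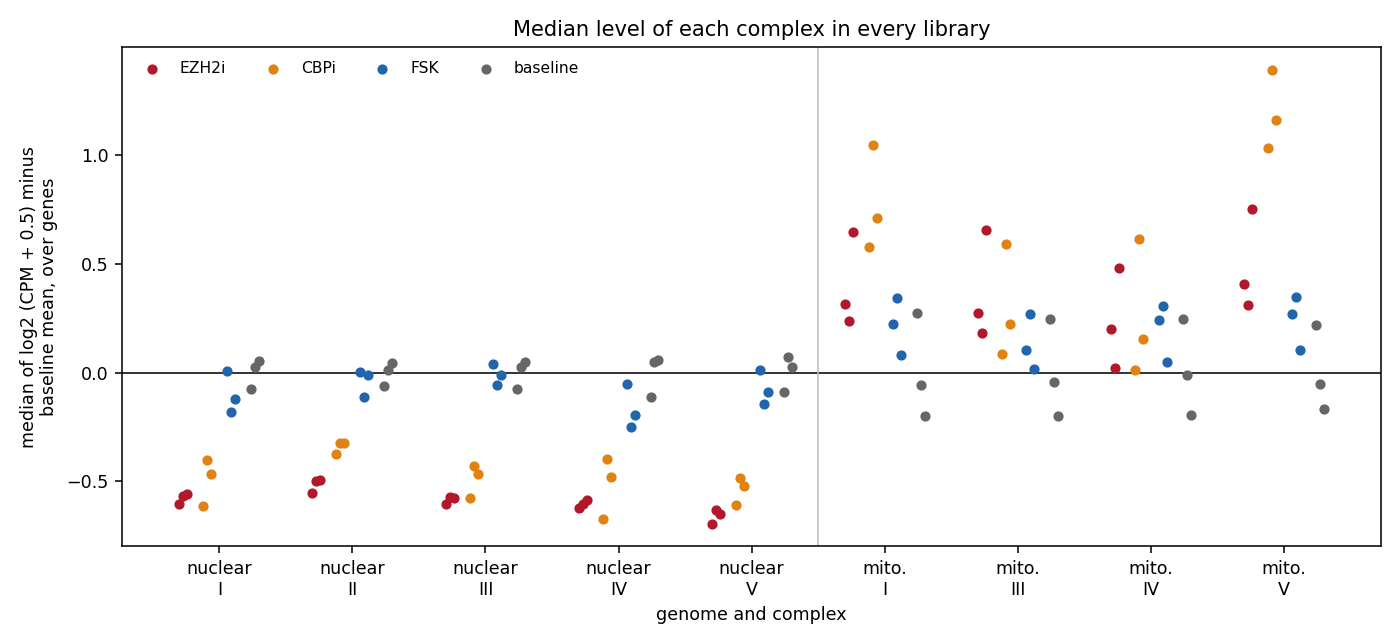
Median over the genes of each complex of log2 (CPM + 0.5) minus the baseline mean, 1 point per library, with nuclear genes on the left and mitochondrially encoded genes on the right. The EZH2i and CBPi libraries lie below -0.3 in every nuclear complex, and within groups the mitochondrial values of EZH2i replicate 3, CBPi replicate 2 and baseline replicate 1 stand highest.

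In complex I the NADH-oxidising arm and the accessory subunits fell together with EZH2i. All 7 nuclear core subunits fell, with a median of -0.61, and 31 of 33 accessory genes fell, with a median of -0.57. The largest fall of the complex with EZH2i was that of NDUFA11, an accessory subunit of the membrane arm at chr19:5891276-5904006. NDUFA11 stood at 65.5, 71.4 and 73.0 CPM in EZH2i libraries, 75.6, 73.7 and 82.7 CPM in CBPi libraries, 159.9, 148.1 and 144.7 CPM in FSK libraries and 127.1, 133.6 and 144.8 CPM in baseline libraries. The libraries of both inhibitors lay well below all others, and those with FSK overlapped baseline. Its log2 fold change was -0.95 ± 0.06 with EZH2i (SE, edgeR adjusted p = 3.44e-11), -0.80 ± 0.06 with CBPi (adjusted p = 4.16e-10) and 0.16 ± 0.06 with FSK (adjusted p = 0.0255). The call with FSK was lost with library size alone and without FSK replicate 1, baseline replicate 1 or baseline replicate 2.

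NDUFB7, a membrane-arm subunit held in the intermembrane space, had the largest fall of complex I with CBPi. It stood at 51.2, 59.0 and 58.6 CPM with EZH2i, 53.7, 47.0 and 59.9 CPM with CBPi, 85.4, 80.2 and 88.4 CPM with FSK and 88.4, 106.8 and 110.3 CPM at baseline. Every inhibitor library was below every baseline library, and its fall with CBPi was -0.92 ± 0.09 (SE, edgeR adjusted p = 8.09e-07).

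NDUFV1 carries the flavin and the NADH site of complex I, and it separated the inhibitors. It stood at 110.7, 119.9 and 118.7 CPM with EZH2i, 165.4, 165.1 and 166.3 CPM with CBPi, 199.0, 195.1 and 196.5 CPM with FSK and 177.2, 170.3 and 184.7 CPM at baseline. None of the 4 groups overlapped. It fell by 0.61 ± 0.04 on the log2 scale with EZH2i (SE, edgeR adjusted p = 2.16e-10), and the value with CBPi was -0.10 ± 0.04 (adjusted p = 0.0499), a call that was lost with limma voom, without a low-count filter, with a filter at 1 CPM, in a fit of the 2 groups alone and in 4 of the 6 fits that left out a library. The direct difference of EZH2i over CBPi was -0.51 ± 0.04 (edgeR adjusted p = 8.32e-09). NDUFV3, a small partner of NDUFV1 in the same arm, had a low value with EZH2i (-0.14 ± 0.05, edgeR adjusted p = 0.0315), and that call was lost without any 1 of the EZH2i libraries, without baseline replicate 2 and with other scalings (upper quartile or library size). The members counted with complex I that did not pass were NDUFA1 and NDUFA4L2 with EZH2i, and NDUFA3, NDUFB1 and NDUFA4L2 with CBPi.

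Complex II, also the succinate dehydrogenase of the citric acid cycle, fell in all 4 subunits with both inhibitors. SDHA, the flavin subunit at chr5:218241-256700, stood at 108.5, 113.9 and 109.2 CPM with EZH2i, 129.2, 123.5 and 129.8 CPM with CBPi, 190.7, 182.8 and 194.6 CPM with FSK and 169.1, 172.0 and 171.4 CPM at baseline. The groups did not overlap, and FSK libraries lay above baseline. Its log2 fold changes were -0.63 ± 0.04, -0.42 ± 0.04 and 0.15 ± 0.04 with EZH2i, CBPi and FSK (SE, edgeR adjusted p = 6.88e-11, 2.43e-08 and 0.0042). With CBPi, SDHC, a membrane anchor, fell most in this complex, by 0.47 ± 0.05. SDHB, the iron-sulfur subunit, fell by 0.47 ± 0.06 with EZH2i and by 0.28 ± 0.06 with CBPi.

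In complex III, CYC1, UQCRFS1 and UQCRQ had the 3 largest falls with either inhibitor. CYC1, the cytochrome c1 that passes electrons to cytochrome c, stood at 76.2, 83.3 and 82.4 CPM with EZH2i, 83.8, 74.3 and 92.1 CPM with CBPi, 151.4, 148.7 and 154.0 CPM with FSK and 147.8, 154.6 and 161.9 CPM at baseline. Its falls of 0.94 ± 0.06 with EZH2i and 0.89 ± 0.06 with CBPi (SE, edgeR adjusted p = 6.76e-11 and 1.56e-10) were close to those of UQCRFS1, the Rieske iron-sulfur protein, at -0.90 ± 0.05 and -0.85 ± 0.05. UQCRQ, a small membrane subunit at chr5:132866560-132868031, had the largest fall of the complex with EZH2i, -0.97 ± 0.11, and reached -0.84 ± 0.11 with CBPi. UQCRC1 and UQCRC2, the large core proteins that face the matrix, fell by 0.51 ± 0.05 and 0.41 ± 0.04 with EZH2i and by 0.61 ± 0.05 and 0.32 ± 0.04 with CBPi. UQCRB, which binds ubiquinone together with cytochrome b, stood at -0.28 ± 0.08 with EZH2i (adjusted p = 0.00572) and did not pass with CBPi (-0.14 ± 0.08, adjusted p = 0.14).

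In complex IV the largest fall with EZH2i was that of COX5B, a matrix-side subunit at chr2:97646040-97648383, and the largest with CBPi that of COX6A1. COX5B stood at 95.8, 105.0 and 105.2 CPM with EZH2i, 121.9, 135.4 and 144.5 CPM with CBPi, 169.6, 144.0 and 150.2 CPM with FSK and 162.0, 187.4 and 186.8 CPM at baseline. Its log2 fold changes were -0.81 ± 0.07, -0.41 ± 0.07 and -0.21 ± 0.07 (SE, edgeR adjusted p = 7.65e-08, 0.000124 and 0.0241) with EZH2i, CBPi and FSK. The FSK libraries overlapped baseline, and that call was lost without baseline replicate 2 (-0.17), baseline replicate 3 (-0.18), FSK replicate 2 (-0.16) or FSK replicate 3 (-0.19). COX6A1 stood at 83.2, 89.9 and 84.4 CPM with EZH2i, 79.2, 78.1 and 89.0 CPM with CBPi, 125.4, 106.8 and 117.7 CPM with FSK and 130.4, 142.7 and 146.4 CPM at baseline, with every treated library below every baseline library. COX7A2L, which helps join complexes III and IV into supercomplexes, fell by 0.22 ± 0.05 with EZH2i and had a value of 0.10 ± 0.05 with CBPi (adjusted p = 0.0681), where its libraries nevertheless lay above those at baseline.

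Tissue-restricted isoforms of complex IV were near the detection limit. COX4I2 and COX7A1, the lung and the muscle isoform, had 0 CPM in all groups, while their broad partners COX4I1 and COX7A2 stood at 189.8 ± 5.5 and 85.3 CPM with EZH2i, 200.4 ± 16.6 and 88.4 CPM with CBPi, 312.8 ± 14.2 and 137.2 CPM with FSK and 329.0 ± 15.0 and 134.6 CPM at baseline (means, SD where given, n = 3). COX6B2, the testis isoform of COX6B1, was low but measurable. It stood at 1.82, 1.36 and 1.19 CPM with EZH2i, 1.502, 1.74 and 1.253 CPM with CBPi, 0.534, 0.662 and 0.359 CPM with FSK and 1.69, 1.69 and 2.35 CPM at baseline. All FSK libraries lay below all others, and the fall of 1.85 ± 0.27 on the log2 scale (SE, edgeR adjusted p = 9.07e-06) was the 1 member that passed a test against a 1.5-fold change with FSK. COX6B1 stood at -0.06 ± 0.08 with FSK.

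In complex V the catalytic head, the stalks and the membrane part all fell with EZH2i. ATP5F1A, the α subunit of the F1 head at chr18:46080248-46104334, had the largest fall of any nuclear member with EZH2i. It stood at 212.5, 230.3 and 226.7 CPM with EZH2i, 309.3, 331.9 and 318.0 CPM with CBPi, 508.2, 465.1 and 494.4 CPM with FSK and 462.1, 507.5 and 520.7 CPM at baseline. EZH2i libraries lay below CBPi libraries, which lay below the rest. The fall was 1.15 ± 0.05 on the log2 scale with EZH2i (SE, edgeR adjusted p = 1.19e-13), or 55.1%, and 0.64 ± 0.05 with CBPi (adjusted p = 8.49e-10). ATP5F1B, its catalytic β partner, fell by 0.68 ± 0.04 with EZH2i and 0.55 ± 0.04 with CBPi. Per length it was the most abundant nuclear member in all groups, at 1414 TPM (counts per kilobase, scaled to the same sum in every library) with EZH2i, 1436 TPM with CBPi, 2275 TPM with FSK and 2127 TPM at baseline. ATP5F1E, the ε subunit, and ATP5ME, the small e subunit of the membrane part, fell with EZH2i (-0.63 ± 0.12 and -0.57 ± 0.16) and did not pass with CBPi (-0.18 ± 0.12 and -0.09 ± 0.16).

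The c-ring is made from 1 mature protein that 3 genes encode, and those genes stood at different values. ATP5MC3 stood at 122.5, 135.3 and 131.4 CPM with EZH2i, 112.4, 120.7 and 117.4 CPM with CBPi, 233.6, 193.7 and 210.5 CPM with FSK and 208.3, 224.6 and 223.6 CPM at baseline. ATP5MC1 stood at 44.0, 50.3 and 50.3 CPM with EZH2i, 41.2, 48.0 and 47.1 CPM with CBPi, 65.0, 62.7 and 61.3 CPM with FSK and 65.3, 78.1 and 78.4 CPM at baseline. ATP5MC2 stood at 112.3, 119.9 and 121.1 CPM with EZH2i, 129.0, 138.9 and 131.6 CPM with CBPi, 128.3, 124.6 and 120.7 CPM with FSK and 131.5, 153.2 and 140.3 CPM at baseline. The first and the second were clearly lower with both inhibitors, and ATP5MC2 overlapped baseline with CBPi. With EZH2i the log2 fold changes of ATP5MC1, ATP5MC2 and ATP5MC3 were -0.62 ± 0.07, -0.27 ± 0.05 and -0.75 ± 0.06, and with CBPi -0.70 ± 0.07, -0.09 ± 0.05 and -0.91 ± 0.06 (edgeR adjusted p of ATP5MC2 with CBPi = 0.148). The differences between these genes were not tested. ATP5IF1, which blocks the synthase when it runs backwards and is no subunit, fell by 0.88 ± 0.05 with EZH2i, by 0.93 ± 0.05 with CBPi and by 0.17 ± 0.05 with FSK.

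Most of these falls did not pass a test against a larger change. Against a 1.5-fold change (glmTreat in edgeR, adjusted p under 0.05), 24 nuclear members passed with EZH2i and 11 with CBPi, all of them lower. By that rule 4.79% of all genes were lower and 6.62% higher with EZH2i, 6.14% lower and 6.09% higher with CBPi, and 6.45% lower and 5.34% higher with FSK. Of the 13 mitochondrially encoded genes, 0 passed it with EZH2i and 5 with CBPi, all higher (MT-ND1, MT-ND2, MT-ND3, MT-ATP6 and MT-ATP8). Set directly against CBPi, EZH2i gave 27 lower and 2 higher nuclear members of 84, beside 22.2% lower and 21.7% higher over all genes. Groups did not overlap for 34 lower and 3 higher nuclear members, beside 26.1% and 25.8% of all genes. By the 1.5-fold rule 0 nuclear members passed and MT-ND2 was lower, beside 1.33% lower and 3.55% higher over all genes. Apart from NDUFV1, the largest falls by complex were those of ATP5F1A (-0.52 ± 0.05, adjusted p = 5.25e-08), COX5B (-0.39 ± 0.07, adjusted p = 0.000364), UQCRHL (-0.39 ± 0.13) and SDHA (-0.21 ± 0.04, adjusted p = 0.000364), all from edgeR. UQCRHL, whose sequence is close to that of UQCRH and may share its reads, lost this call without CBPi replicate 2 (-0.16), EZH2i replicate 1 (-0.40) or EZH2i replicate 3 (-0.37), and its value is uncertain. The 2 higher genes were ATP5F1C, the central stalk subunit γ (0.17 ± 0.05, adjusted p = 0.00778), and ATP5MC3 (0.15 ± 0.06, adjusted p = 0.043), which lost the call in 4 of the 6 fits that left out a library. Without CBPi replicate 1, 41 nuclear members were lower with EZH2i than with CBPi, and without CBPi replicate 2, 6 were higher. Over all genes, 4231 of 20857 were lower in the first of these fits and 4317 of 20817 higher in the second. The inhibitor doses differ and were matched on IC50, so the comparison is between these exposures.

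With FSK 31.0% of the nuclear members tested were lower and 10.7% higher, beside 25.1% and 25.5% of all genes. The lower share is thus near that of all genes, and the higher share is below it. The 9 that rose were NDUFA9, NDUFA10, NDUFA11, NDUFB9, NDUFS1, NDUFV1 and NDUFV3 of complex I, SDHA of complex II and ATP5F1B of complex V, by 0.12 to 0.19 on the log2 scale. NDUFA10, a membrane-arm subunit of complex I at chr2:239892450-240025402, stood at 61.1, 60.5 and 55.3 CPM with FSK and 47.7, 53.5 and 54.3 CPM at baseline (0.19 ± 0.06 SE, edgeR adjusted p = 0.00908). The 26 lower genes were spread as 13 in complex I, 0 in complex II, 2 in complex III, 6 in complex IV and 5 in complex V. NDUFC1, a small membrane subunit at chr4:139266880-139302551, stood at 50.9, 46.3 and 52.1 CPM with FSK and 65.7, 67.9 and 67.3 CPM at baseline, a fall of 0.43 ± 0.06 (SE, edgeR adjusted p = 2.28e-06). UQCR10 of complex III stood at 70.4, 60.1 and 61.2 CPM with FSK and 80.8, 84.6 and 82.3 CPM at baseline, a fall of 0.37 ± 0.06 (adjusted p = 4.12e-05). NDUFB2, the other promoter with the cAMP response element shown above, fell by 0.30 ± 0.06.

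The counts with FSK depended on how libraries were scaled. With library size alone in place of the trimmed mean, 41 nuclear members were lower and 1 was higher, and over all genes 6257 were lower and 4119 higher, beside 5102 and 5197 with the trimmed mean. Leaving out 1 library gave 13 to 32 lower and 4 to 10 higher, beside 4607 to 4862 lower and 4543 to 4832 higher over all genes. Lower members numbered 15 without FSK replicate 2, 13 without baseline replicate 2 and 15 without baseline replicate 3. Higher members numbered 4 without FSK replicate 1 or baseline replicate 1. Of the 5 members whose promoter windows held TGACGTCA, NDUFA10 rose, NDUFB2 and ATP5MC1 fell, and ATP5ME and SDHB did not pass.

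The 9 members that rose with FSK had a median annotated transcript of 2108 bases (750 to 4503), and the 26 that fell 709 bases (522 to 1703), so that the ranges overlapped. Subunit mRNAs are short, with a median of 757 bases for the tested nuclear members and 2557 bases for 14518 protein-coding genes. Across those protein-coding genes the Spearman correlation of log2 fold change with transcript length was 0.35 with EZH2i, 0.25 with CBPi and 0.00 with FSK, a description across genes that share libraries. Among the 84 nuclear members it was 0.06 with EZH2i, 0.14 with CBPi and 0.33 with FSK. The part of transcript length in the falls was not tested.

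**Figure D3:**
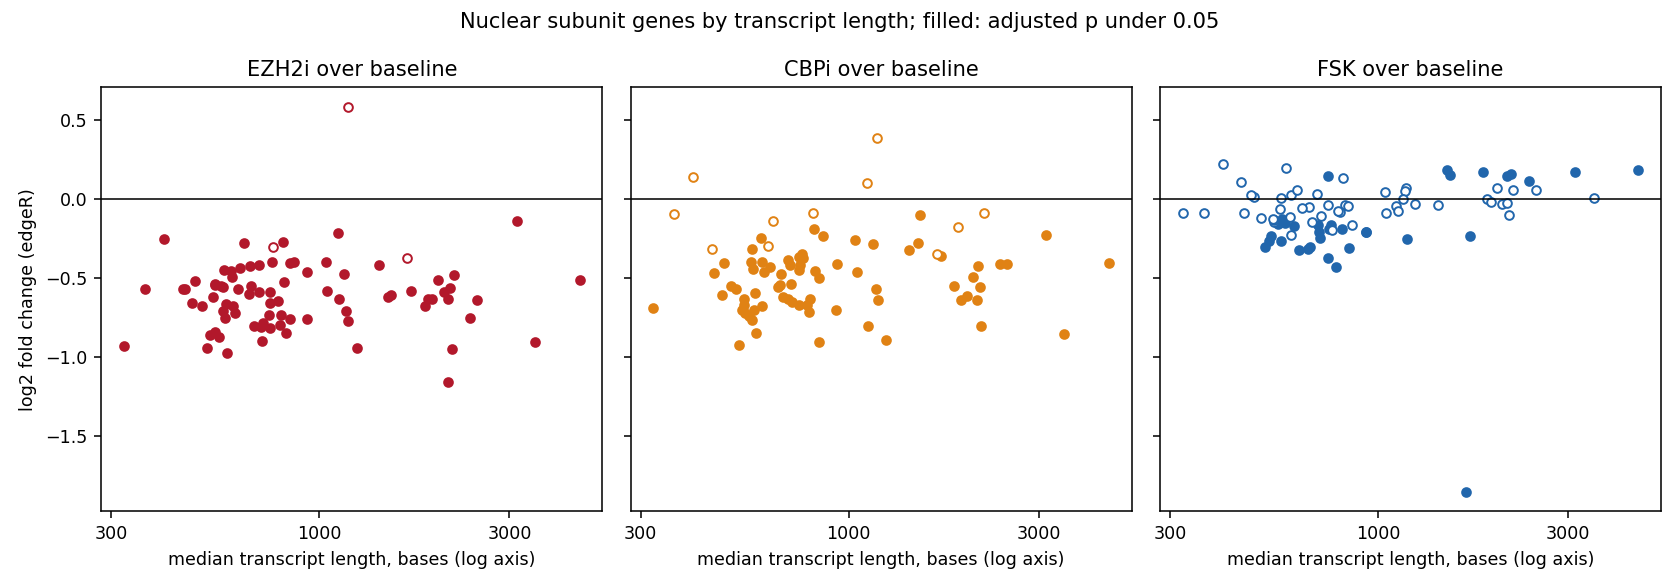
Log2 fold change of each tested nuclear subunit gene against the median length of its annotated transcripts in bases (log axis), for EZH2i, CBPi and FSK over baseline, with filled points at an adjusted p under 0.05. With FSK the 9 filled points above 0 have transcripts of 750 to 4503 bases, while falls with EZH2i appear across the whole range of lengths.

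Some of the mitochondrially encoded mRNAs rose with the inhibitors. With EZH2i, 5 of 13 (38.5%) rose and 0 fell, and with CBPi 8 (61.5%) rose and 0 fell, beside 29.5% and 29.8% of all genes that rose. The share with EZH2i is thus near that of all genes. With FSK 0 of 13 passed in edgeR (also 0 with DESeq2 and limma voom, but 12 higher in edgeR without a low-count filter). Over all genes, 5189 of 38941 were higher with FSK without that filter. At an unadjusted p under 0.05 the FSK count was also 0 of 13. The medians of the 13 were 0.38 with EZH2i, 0.78 with CBPi and 0.20 with FSK. Summed over the 13 genes, libraries held 29494, 27026 and 36916 CPM with EZH2i, 31642, 42877 and 34827 CPM with CBPi, 27052, 29608 and 24741 CPM with FSK and 28182, 22979 and 20802 CPM at baseline. CBPi libraries lay above baseline, and the lowest EZH2i library lay below the highest at baseline. The count with EZH2i was unstable: it was 1 when only the EZH2i and baseline libraries were fitted, 10 with limma voom and 13 without a low-count filter, and 2 without EZH2i replicate 3, baseline replicate 2 or baseline replicate 3 and 8 without baseline replicate 1. Over all genes, higher ones in those fits ran from 5282 of 20819 (without baseline replicate 2) to 6339 of 38941 (without the filter). The count with CBPi was 8 in each fit that left out 1 library.

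The rises with CBPi were uneven along the genome. MT-ND2, a proton-pumping subunit of complex I at chrM:4470-5511, stood at 1760, 1566 and 2193 CPM with EZH2i, 3757, 4765 and 3931 CPM with CBPi, 1347, 1458 and 1232 CPM with FSK and 1365, 1128 and 1019 CPM at baseline. CBPi libraries were far above all others and EZH2i libraries also lay above baseline. The log2 fold change was 1.83 ± 0.16 with CBPi (SE, edgeR adjusted p = 8.1e-06) and 0.65 ± 0.16 with EZH2i (adjusted p = 0.00594). MT-ND1 and MT-ND3 of complex I rose by 1.09 ± 0.16 and 1.35 ± 0.19 with CBPi, and MT-ND4 and MT-ND4L, whose reading frames also overlap, by 0.65 ± 0.17 and 0.78 ± 0.18. MT-ATP6, the proton channel subunit of complex V, and MT-ATP8, which share the bases shown above, rose alike with CBPi, by 1.19 ± 0.16 and 1.20 ± 0.14.

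MT-CO1, the catalytic subunit of complex IV with its haem and copper site (chrM:5904-7445), did not share that rise. It stood at 5981, 5468 and 7522 CPM with EZH2i, 3745, 5093 and 4067 CPM with CBPi, 5886, 6406 and 5393 CPM with FSK and 6487, 5136 and 4702 CPM at baseline. CBPi overlapped baseline, and the value was -0.34 ± 0.17 (SE, edgeR adjusted p = 0.119), which passed as lower with limma voom, without a low-count filter or without CBPi replicate 2 (-0.49). Of the other complex IV genes, MT-CO3 rose by 0.80 ± 0.17 with CBPi and MT-CO2 stood at 0.28 ± 0.18. MT-ND5 (0.00 ± 0.16), MT-ND6 (0.03 ± 0.17) and MT-CYB, cytochrome b of complex III (0.31 ± 0.18), did not pass with CBPi. Set directly against CBPi, EZH2i gave 6 lower genes (MT-ND1, MT-ND2, MT-ND3, MT-CO3, MT-ATP6 and MT-ATP8) and 1 higher (MT-CO1, 0.56 ± 0.17, edgeR adjusted p = 0.0266, lost without EZH2i replicate 3, CBPi replicate 1 or CBPi replicate 3).

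Within a library the 13 genes can be set against each other, which removes the differences in total mitochondrial mRNA. Each gene's share of the 13-gene counts was tight among replicates, with SDs of at most 0.55 percentage points. With CBPi all 13 shares lay outside the baseline range, 8 above and 5 below. MT-ND2 made up 11.4% ± 0.4 with CBPi and 4.88% ± 0.04 at baseline, and MT-CO1 11.8% ± 0.1 with CBPi and 22.7% ± 0.3 at baseline (SD, n = 3 each). The other shares below baseline were those of MT-CO2, MT-ND5, MT-ND6 and MT-CYB. Because the shares sum to the whole, rises force falls, and a lower share is no fall in level. With EZH2i, 5 shares lay above and 4 below baseline, with MT-CO1 at 20.3% ± 0.1 and MT-ND2 at 5.90% ± 0.09. With FSK, 5 lay above and 3 below, with MT-CO1 at 21.7% ± 0.1. The 13 shares depend on each other, so no share over all genes stands beside these counts. On CPM, libraries lay above all at baseline for 6 of 13 genes with EZH2i, 8 with CBPi and 0 with FSK. Over all genes this held for 33.8%, 31.4% and 28.8%. The FSK shifts were small. As multiples of baseline, mean shares ran from 0.93 (MT-ND5) to 1.06 (MT-ND4L) with FSK. They ran from 0.88 (MT-CO3) to 1.21 (MT-ND2) with EZH2i and from 0.52 (MT-CO1) to 2.34 (MT-ND2) with CBPi. MT-ND6, the only protein gene on the other strand, is known to lack a poly(A) tail, and it held at most 0.503% in any group mean.

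**Figure D4:**
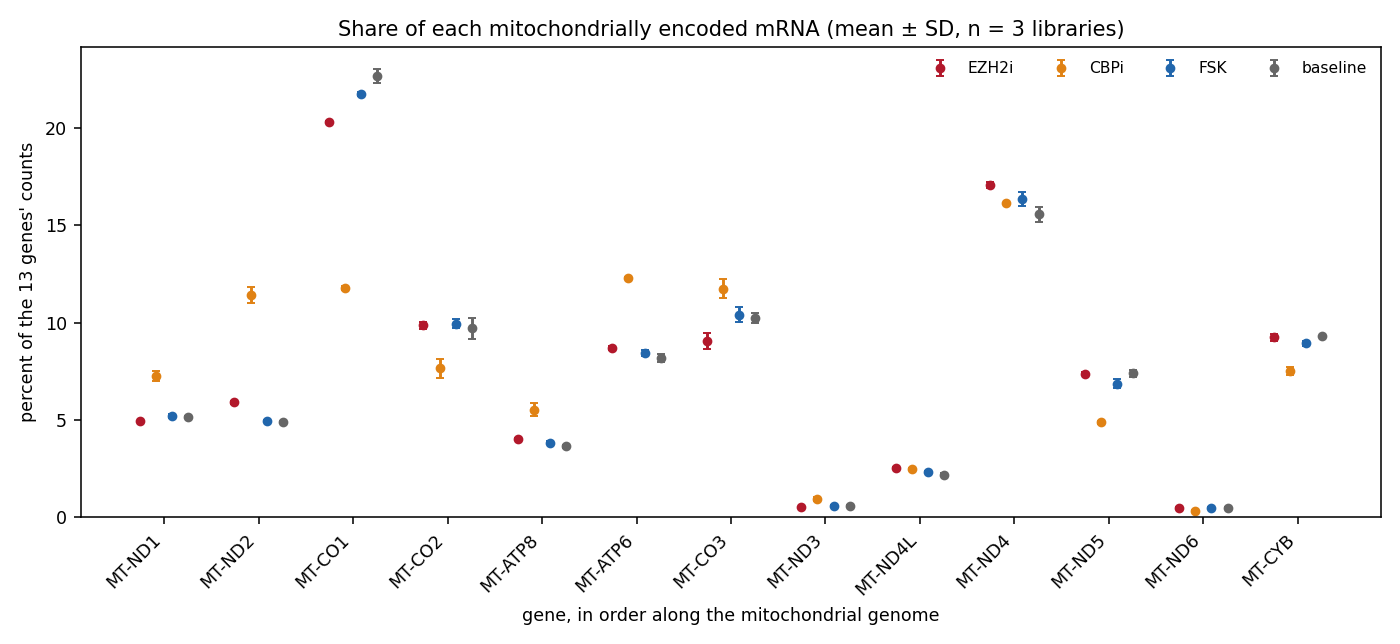
Share of each mitochondrially encoded mRNA in the summed counts of the 13 genes (percent, mean ± SD of 3 libraries), in order along the mitochondrial genome, for EZH2i, CBPi, FSK and baseline. With CBPi the share of MT-ND2 is 11.4% and that of MT-CO1 11.8%, against 4.88% and 22.7% at baseline.

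Nuclear copies have rows of their own, and reads of a gene and of its copy cannot be told apart where the bases are the same. The copies of MT-ATP6 together had counts equal to 30.3% to 37.7% of those in the row of the gene itself, across libraries. The same ratio was 25.2% to 29.1% for MT-CO1, 15.4% to 17.4% for MT-ND2 and at most 0.0139% for MT-CYB. The copy MTND2P28 moved by 1.92 with CBPi and MTCO1P12 by -0.35, beside 1.83 and -0.34 for the genes themselves. Summing each gene with its copies left the counts of higher genes at 5 with EZH2i, 8 with CBPi and 0 with FSK. The rRNA gene MT-RNR2, which is no member, stood at 4430 ± 582 CPM with EZH2i, 3237 ± 398 CPM with CBPi, 2189 ± 232 CPM with FSK and 2015 ± 336 CPM at baseline, and it rose by 1.14 ± 0.15 with EZH2i and 0.68 ± 0.15 with CBPi. Its order between the inhibitors was thus opposite to that of MT-ND2. The other rRNA gene, MT-RNR1, stood at 1020 ± 64.6 CPM with EZH2i, 1015 ± 178 CPM with CBPi, 1123 ± 155 CPM with FSK and 1109 ± 206 CPM at baseline and did not pass in any comparison.

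With the inhibitors the ratio of mitochondrially to nuclear encoded mRNA was above baseline in each complex that draws on both genomes. The nuclear falls described above enter these ratios. Among mitochondrial genes of complexes III and IV, 0 of 1 and 0 of 3 passed as higher with EZH2i. With CBPi these were 0 of 1 and 1 of 3. Over all genes 29.5% were higher with EZH2i and 29.8% with CBPi. The median TPM of mitochondrially encoded subunits over that of nuclear ones in complex I was 77.3 ± 12.8 with EZH2i, 119.0 ± 9.8 with CBPi, 40.3 ± 4.9 with FSK and 32.3 ± 5.3 at baseline (SD, n = 3 each). As multiples of the baseline mean, EZH2i reached 2.39 in complex I, 2.49 in complex III, 1.93 in complex IV and 2.34 in complex V. CBPi reached 3.68, 2.35, 1.85 and 3.57, and FSK 1.247, 1.20, 1.13 and 1.27, in the same order of complexes. On CPM, with no length correction, the complex I ratio was 31.7 ± 5.2 with EZH2i, 32.8 ± 3.2 with CBPi, 19.04 ± 2.34 with FSK and 14.6 ± 2.7 at baseline. There the inhibitors overlapped and the CBPi multiple was 2.24. These are ratios of medians, and the gene at the median differed between groups. In complex I the mitochondrial median on TPM was MT-ND2 at baseline and MT-ND1 with either inhibitor. On CPM it was MT-ND2 at baseline and MT-ND5 with CBPi. Taken gene by gene, the median fold over baseline in complex I with CBPi was 1.71 for mitochondrial and 0.72 for nuclear members. With EZH2i these folds were 1.30 and 0.67. On TPM the inhibitor libraries lay above baseline in all 4 complexes, and the FSK libraries overlapped baseline in all 4. With only 3 libraries a group no test of these ratios was made, and the per-length values rest on deposited lengths that join all exons of a gene. All mitochondrial rows together made up 3.76% ± 0.58 of counts with EZH2i, 4.11% ± 0.64 with CBPi, 2.94% ± 0.29 with FSK and 2.74% ± 0.44 at baseline.

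**Figure D5:**
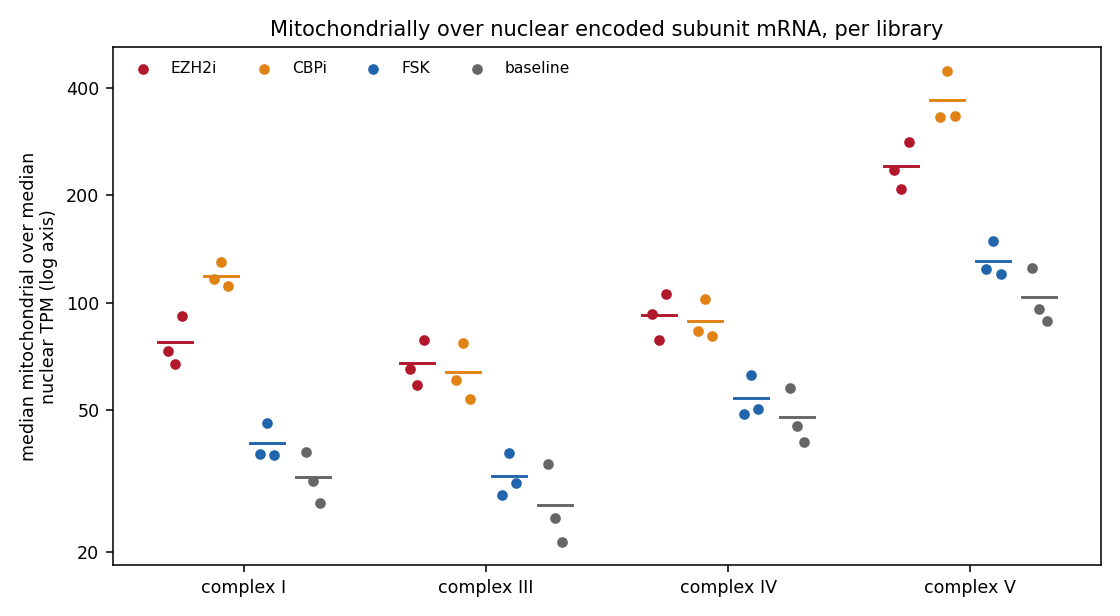
Median TPM of mitochondrially encoded subunit genes over the median TPM of nuclear ones (log axis) in complexes I, III, IV and V, 1 point per library with a line at the mean, for EZH2i, CBPi, FSK and baseline. In complex I the means are 77.3 with EZH2i, 119.0 with CBPi, 40.3 with FSK and 32.3 at baseline, and no EZH2i or CBPi point reaches down to baseline in any of the 4 complexes.

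Genes that build or serve the chain were also counted, and their counts stand beside 28.3% lower and 29.5% higher over all genes with EZH2i, 29.0% and 29.8% with CBPi, and 25.1% and 25.5% with FSK. Of 55 assembly factors, which help put the complexes together, 44 fell and 1 rose with EZH2i, 34 fell and 4 rose with CBPi, and 11 fell and 10 rose with FSK. These are 80.0% lower with EZH2i, 61.8% lower with CBPi, and 20% lower and 18.2% higher with FSK, which is below the shares over all genes. With EZH2i, COX18, which inserts COX2 into the membrane, fell by 1.12 ± 0.07 and UQCC2, which helps make cytochrome b, by 0.92 ± 0.10. COX19, a copper chaperone of complex IV, was the 1 that rose (0.24 ± 0.07 with EZH2i, 0.28 ± 0.07 with CBPi and 0.70 ± 0.07 with FSK). With CBPi the largest falls were those of UQCC3 (1.02 ± 0.08) and COA3 (0.80 ± 0.05). Of 12 genes for cytochrome c and coenzyme Q synthesis, 11 fell with EZH2i, 8 with CBPi and 2 with FSK, where 3 rose. COQ3, a methyltransferase of coenzyme Q synthesis, fell by 1.07 ± 0.11 with EZH2i and 1.254 ± 0.11 with CBPi.

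Of 39 genes for replication, transcription and RNA handling of the mitochondrial genome, 27 fell and 2 rose with EZH2i, 24 fell and 7 rose with CBPi, and 3 fell and 15 rose with FSK. Lower genes thus made up 69.2% with EZH2i and 61.5% with CBPi, and higher genes 38.5% with FSK, against 28.3%, 29.0% and 25.5% of all genes in those directions. The 2 that rose with EZH2i were POLRMT, the mitochondrial RNA polymerase (0.18 ± 0.07), and MGME1, a nuclease of mitochondrial DNA (0.16 ± 0.07). The largest falls with EZH2i were in PRORP and TRMT10C, partners that cut tRNAs out of mitochondrial transcripts, by 0.73 ± 0.07 and 0.71 ± 0.07. TFB1M, which methylates the small mitochondrial rRNA, rose by 0.50 ± 0.11 with CBPi and by 1.05 ± 0.11 with FSK. POLRMT was also higher with FSK (0.46 ± 0.07). Of 17 genes for pyruvate dehydrogenase and the citric acid cycle, 16 fell and 0 rose with EZH2i, 15 fell and 1 rose with CBPi, and 2 fell and 4 rose with FSK. FH, the fumarase, fell by 1.18 ± 0.05 with EZH2i and 0.89 ± 0.05 with CBPi. IDH3A and MDH2, which make NADH in the cycle, rose with FSK by 0.48 ± 0.04 and 0.40 ± 0.04.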

How the data were processed

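Polyadenylated RNA of 12 libraries was analysed, 3 for each of EZH2i, CBPi, FSK and baseline. The deposited table holds each estimated count per gene, with a gene length, as the authors made them with STAR and featureCounts on hg38, per the submitters' processing notes. The sources used here do not give tool versions, the annotation release, the strand setting or the treatment of reads with several matches. Of the non-zero values, 65.6% were whole within 1e-06. The counts were rounded, and 0 sample columns were left unused. Gene types and positions came from GENCODE 29 (GRCh38) and promoters from RefSeq (GRCh38.p14).

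One fit of all 12 libraries was made with edgeR 4.0.16 (R 4.3.3), with trimmed-mean scaling, filterByExpr (20360 genes kept), the robust quasi-likelihood test and Benjamini-Hochberg adjustment at 0.05 over all genes. Standard errors are the log2 fold change over the root of F. CPM used the scaled library sizes, and TPM the deposited length. Per-library medians used log2 (CPM + 0.5). The biological coefficient of variation was 4.98%. Alternatives used limma 3.58.1, DESeq2 1.42.0, other scalings and filters, and fits without each library. The fit was also run on simulated counts with the same dispersion for every gene. That setting does not cover genes that vary more between cultures, such as those of the mitochondrial genome. Fits with nuclear copies added were chosen after seeing the data.

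The members and lists were chosen with earlier results of these data known. Genes are named by the largest changes of each complex and list, members called against the common direction of their complex, the mitochondrial genes, paralogue pairs, and members called in 1 direction in all 3 comparisons with baseline. Where others are named to describe isoforms or roles, they were chosen after their values were seen. Single values of a few genes are not reported here.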

Additional observations from a re-analysis of the deposited data

How the results depend on the processing

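Tested against a 1.5-fold change, lower nuclear members numbered 24 with EZH2i, 11 with CBPi, 1 with FSK and 0 for EZH2i over CBPi, and higher ones 0 with FSK and 0 for EZH2i over CBPi. Higher mitochondrial members then numbered 0 with EZH2i, 5 with CBPi and 0 for EZH2i over CBPi, with 1 lower in that last comparison. The shares over all genes by this rule are given above. With limma voom, higher mitochondrial members numbered 10 with EZH2i and 3 for EZH2i over CBPi, 1 was lower with CBPi, and 1 nuclear member was higher for EZH2i over CBPi. Of 20360 genes with limma voom, 6011 were higher with EZH2i and 4469 for EZH2i over CBPi, and 5925 were lower with CBPi. Without a low-count filter, higher mitochondrial members numbered 13 with EZH2i, 12 with FSK and 4 for EZH2i over CBPi, and 1 was lower with CBPi. Of the 38941 genes then tested, 6339 were higher with EZH2i, 5189 with FSK and 4617 for EZH2i over CBPi, and 6042 were lower with CBPi. Fitting only the groups compared gave 1 higher mitochondrial member with EZH2i and 2 for EZH2i over CBPi. Over all genes, 6011 of 19897 and 4266 of 19910 were higher in those fits. A filter at 1 CPM gave 1 higher nuclear member with CBPi, and scaling without mitochondrial genes gave 1 for EZH2i over CBPi. Over all genes, 5826 of 17434 and 4254 of 20360 were higher there. With library size alone, 41 nuclear members were lower and 1 higher with FSK, beside 6257 and 4119 of 20360 genes. The cause of these changes was not tested.

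Leaving out 1 library gave 78 to 82 lower nuclear and 2 to 8 higher mitochondrial members with EZH2i. With CBPi it gave 70 to 80 lower and 0 to 1 higher nuclear members, and 8 to 8 higher and 0 to 1 lower mitochondrial ones. With FSK it gave 13 to 32 lower and 4 to 10 higher nuclear members. For EZH2i over CBPi it gave 20 to 41 lower and 1 to 6 higher nuclear members, and 5 to 6 lower and 0 to 1 higher mitochondrial ones. These fits tested 20757 to 20857 genes. Over all genes they gave 5314 to 5584 lower and 5282 to 5757 higher with EZH2i, and 5467 to 5868 and 5387 to 5711 with CBPi. With FSK they gave 4607 to 4862 lower and 4543 to 4832 higher, and for EZH2i over CBPi 3864 to 4262 and 3872 to 4317.

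On CPM without length, the mitochondrial to nuclear ratio over baseline was 2.24 in complex I, 1.75 in complex III and 2.62 in complex IV with CBPi, 2.01 in complex III with EZH2i and 1.31 in complex IV with FSK.

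Log2 fold changes turned direction for genes that did not pass the test. MT-ND5 with CBPi reached 0.0031 with the 1 CPM filter and 0.0051 with limma voom. With library size alone and FSK, COX7A2 stood at -0.0425, UQCRH at -0.0462 and UQCRHL at -0.0098. Without 1 library, values ran from -0.1284 to 0.1433 (MT-ND5), -0.0905 to 0.2058 (MT-ND6) and -0.3281 to 0.0288 (UQCRHL) with CBPi, and from -0.0118 to 0.3323 (MT-CO2) and -0.0902 to 0.2312 (MT-CYB) for EZH2i over CBPi. With FSK they ran from -0.0745 to 0.0134 (ATP5F1A), -0.1162 to 0.0214 (ATP5MC3), -0.051 to 0.0785 (COX7A2), -0.0193 to 0.2152 (MT-ND5), -0.2327 to 0.7086 (NDUFA4L2), -0.0342 to 0.0647 (UQCRH) and 0.0002 to 0.1359 (UQCRHL).

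No paired analysis was possible because the labels carry no replicate numbers; the numbers used here follow the order of the records and only name libraries. In the main fit, p-values set group differences against a spread between cultures that was estimated over all 12 libraries and across genes. With 3 cultures a group of 1 line, they cover no other line.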
